A study of Mus musculus with 4 samples.

Results

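The JAK, STAT and SOCS genes examined here were the kinase genes Jak1, Jak2, Jak3 and Tyk2, the transcription factor genes Stat3, Stat5a and Stat5b, and the inhibitor genes Socs2 and Socs3. They were taken through every probe set (a group of array probes that reads 1 transcript) that the array annotation assigns to 1 of them alone. All 9 genes were found, with 25 probe sets of 45037. Of the whole array, 18193 genes had a probe set of their own. The cells were gonocytes, the germ cells of the newborn testis, taken from mice at 2 days post partum and enriched with magnetic beads for the surface protein THY1. After sorting they were kept for 8 h without serum, growth factors or feeder cells, with ethanol (vehicle, 2 samples) or with 100 nM retinoic acid (RA, 2 samples). No genotype or strain is given in the labels. Each sample was hybridised to 1 Affymetrix array, so 4 arrays were compared. Nothing in the labels ties the samples to separate animals or separate cultures. The p-values therefore cover the spread of these 4 samples alone, and that spread may be technical.

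JAK kinases sit on the inner side of cytokine receptors. When a cytokine binds, they phosphorylate the receptor and then STAT proteins, which pair, enter the nucleus and switch on target genes. SOCS genes are among those targets, and their proteins bind JAKs or receptors and damp the signal, so a SOCS transcript can serve as a read-out of the pathway as well as its brake. The pathway carries the signals of leukemia inhibitory factor, growth hormone, interleukins and interferons, and has been tied to the differentiation of gonocytes under RA. STAT activity is set by phosphorylation, which an expression array does not measure.

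Promoter sequences of 8 of the 9 genes were matched in RefSeq (mouse, GRCm38.p6), as windows of 300 bases that run from 250 bases before the start site to 50 after it. They were searched on both strands for the STAT recognition pattern TTCNNNGAA and for AGGTCA, the half-site to which RA receptors bind, alone and as direct repeats spaced by 5 or by 2 bases. The Socs3 window is shown because it was the only one among the members to hold the STAT pattern, and the Stat5a and Stat5b windows because they were the only ones to hold the half-site. Capitals mark the match, and TGACCT is the half-site on the opposite strand.
Socs3, chr11:117969482-117969550, minus strand: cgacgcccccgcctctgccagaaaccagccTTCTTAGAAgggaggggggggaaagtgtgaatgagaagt
Stat5a, upstream start site, chr11:100859580-100859645, plus strand: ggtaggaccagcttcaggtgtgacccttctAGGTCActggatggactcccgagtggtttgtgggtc
Stat5a, downstream start site, chr11:100860410-100860475, plus strand: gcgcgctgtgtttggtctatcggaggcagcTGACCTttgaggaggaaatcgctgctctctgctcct
Stat5b, downstream start site, chr11:100822570-100822635, minus strand: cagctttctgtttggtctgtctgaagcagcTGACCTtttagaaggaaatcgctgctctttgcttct
The Socs3 match began at −154 from the start site. The pattern TTCNNNGAA occurs in 8.3% of all 32851 promoter windows and AGGTCA in 16.3%, so neither is rare. The direct repeats were in none of the member windows and in 0.00913% of all windows each. A match shows these letters only, not binding. Stat5b, Stat5a and Stat3 follow each other on chromosome 11 in the RefSeq annotation.

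None of the member genes passed the test for a difference between RA and vehicle. Of the 25 probe sets, 20 had a mean level above the filter, which lay at a signal of about 15.5, and they represent 8 genes, all but Jak3. In limma, 0 of these 20 had an adjusted p under 0.05 and 0 had an unadjusted p under 0.05, against 0% and 2.75% of the 27022 probe sets tested. The RA pair was above the vehicle pair in 1 member probe set and below it in 1, where the background was 12.7% higher and 15.2% lower. With each gene read from its brightest probe set, 4 of the 8 log2 changes were positive and 4 negative, with a median of −0.03, beside a median of 0.01 over 13011 genes. In all 8 genes the change was smaller than the larger of the gaps between the 2 arrays of a group. The RA treatment itself was visible in the same fit. The RA targets Stra6, Rarb, Cyp26a1, Stra8 and Dhrs3 were higher on both RA arrays by 2.31 to 3.35 on the log2 scale, although none of them passed adjustment over all probe sets either (limma, smallest adjusted p = 0.209).

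The samples carried germ cell transcripts and those of other testis cells. All 13 measured germ cell markers were above the filter, with signals that summed to 10349 and 9909 for vehicle and to 9438 and 9405 for RA. Of the 13, 11 were negative, with a median log2 change of −0.20. The groups did not overlap in 4 that were lower and 0 that were higher, where the background was 12.6% and 14.1% of genes. Of the macrophage and myeloid markers, 8 of 12 were above it, with sums of 1546 and 3085 without RA and 1136 and 2512 with it and a median log2 change of −0.35. All 8 mast cell markers were above the filter, with sums of 4063 and 8330 without RA and 2457 and 7461 with it. All 8 were negative, with a median log2 change of −0.84. The groups did not overlap in 3 of them, all lower, against a background of 12.6% of genes. For both of these lists replicate 2 had the higher sum in each group. All 10 stromal and peritubular markers were above the filter. They summed to 10029 and 12896 without RA and to 10473 and 13963 with it, replicate 2 again being higher. Sums cannot be compared between lists, because probe sets bind with different strength. T and NK lymphocyte markers, with 7 of 11 above the filter and Cd4, Cd8a, Il2rb and Nkg7 below it, summed to 358 and 381 without RA and to 406 and 435 with it, both RA arrays being higher. Of the 7 lymphocyte markers above the filter, 5 were positive and 2 negative, with a median log2 change of 0.13. Among these 7 only Gzmb, a cytotoxic granule protease, was separated, with 24.4 and 56.3 against 89.2 and 117. Without Gzmb the lymphocyte sum was not higher with RA. Sertoli cell markers, with 6 of 8 above the filter, summed to 1310 and 1581 without RA and to 1743 and 1689 with it. Endothelial markers, all 8 above the filter, summed to 281 and 264 without RA and to 323 and 377 with it. In these lists too both RA sums were higher. The groups did not overlap in 2 Sertoli and 3 endothelial markers, all higher, where the background was 14.1% of genes. The ratio of 3' to 5' signal of the control transcript Actb was also higher on both RA arrays (2.08 and 2.32) than on the vehicle arrays (1.72 and 1.73), as was that of Gapdh (1.85 and 2.00 against 1.56 and 1.47). The groups overlapped for Tfrc (14.7 and 9.59 against 11.5 and 9.57) and for Pcx (13.4 and 18.6 against 31.9 and 9.12). Whether any of these moved the member genes was not tested. In such mixed samples, fewer cells of a type and less RNA per cell cannot be told apart.

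**Figure D1:**
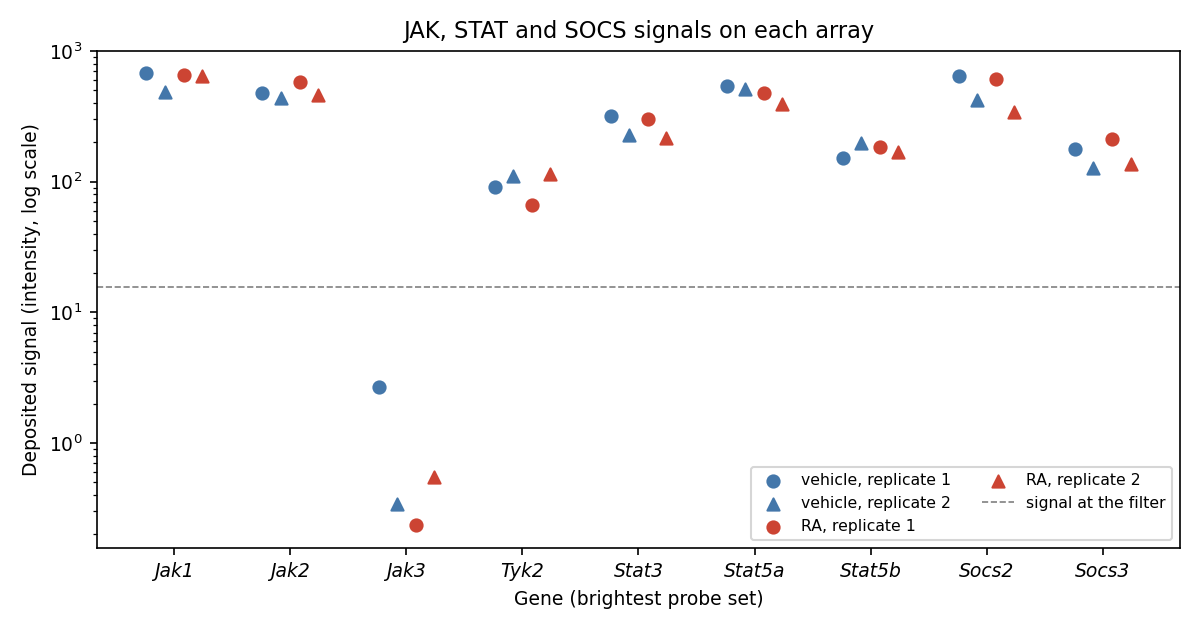
Deposited signal (log axis) of the 9 member genes, each on its brightest probe set, on the 2 vehicle and 2 RA arrays; the dashed line marks the filter at a signal of 15.5. Vehicle and RA points overlap in every gene but Stat5a, and Jak3 lies below the line on all 4 arrays. Probe sets bind with different strength, so heights are not comparable between genes.

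The kinase genes Jak1, Jak2 and Tyk2 were measured above the filter under both conditions. Jak1, which serves most cytokine receptor families including those of interferons and of the gp130 group, gave signals of 674 and 487 with vehicle against 652 and 646 with RA. Vehicle replicate 2 was the low array and the other 3 lay close together. The log2 change (RA minus vehicle, on the log2(signal + 5) scale) was 0.18 ± 0.22 (SE, n = 2 per group), with a 95% interval from −0.33 to 0.69. The other 2 Jak1 probe sets gave −0.01 and −0.27, so the probe sets of this gene differed in sign. Jak2, which transmits growth hormone and erythropoietin signals, had 477 and 433 with vehicle and 578 and 457 with RA. RA replicate 1 was the highest array, and the groups overlapped (log2 change 0.17 ± 0.21, interval −0.30 to 0.65). Its second probe set gave 0.24 ± 0.31, with replicate 1 above replicate 2 in both groups. Tyk2, the interferon and interleukin 12 receptor kinase, had 91.3 and 110 with vehicle and 66.7 and 114 with RA. RA replicate 1 was the lowest array and RA replicate 2 the highest, so the RA arrays enclosed the vehicle arrays (log2 change −0.19 ± 0.31, interval −0.90 to 0.52). On a dimmer Tyk2 probe set the change was 0.05 ± 0.33.

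Jak3, the kinase of the common gamma chain receptors of lymphocytes, was not detected above the filter. Its only probe set gave signals of 2.69 and 0.343 with vehicle against 0.235 and 0.546 with RA, all near the bottom of the scale, so it was not tested. There were 2 further probe sets that the annotation gives to both Jak3 and its neighbour Insl3, a hormone gene of Leydig cells. On the brighter of them the signals were 133 and 197 without RA and 211 and 173 with it. The groups overlapped, and which of the 2 genes gave this signal cannot be told apart. Of the gamma chain receptor genes measured, Il2ra, Il2rb, Il9r and Il21r were below the filter and Il4ra, Il7r and Il15ra above it.

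Among the STAT genes, Stat5a had the smallest p of the 8 genes read from their brightest probe sets, and it was the only one of them whose groups did not overlap. Stat5a, which acts downstream of growth hormone, prolactin and several interleukins, gave signals of 538 and 511 with vehicle against 476 and 392 with RA. Both RA arrays were below both vehicle arrays, and the gap between the RA arrays (0.28, log2) was as wide as the difference between the groups. The level was 1.21-fold lower (log2 change −0.28 ± 0.20, interval −0.74 to 0.18, limma, unadjusted p = 0.201, adjusted p = 1). The background for this direction was 12.6% of genes. Its second probe set, below the filter and not tested, had 15.3 and 10.2 against 6.68 and 9.24. Stat5b, the close paralogue of Stat5a, had 153 and 196 with vehicle and 183 and 169 with RA. Here the RA arrays lay between the vehicle arrays (log2 change 0.02 ± 0.22, interval −0.49 to 0.54). The 2 genes are so alike in sequence that their probes may take up some of each other's transcript, and this was not tested. Stat3, the main mediator of gp130 receptors and leukemia inhibitory factor, had 316 and 228 with vehicle and 301 and 214 with RA. Replicate 1 was above replicate 2 in both groups by nearly the same amount, 0.46 with vehicle and 0.48 with RA on the log2 scale, while the change with RA was −0.08 ± 0.25 (interval −0.66 to 0.51). On the other Stat3 probe sets above the filter it was 0.15 ± 0.27 and 0.24 ± 0.27. The last of these gave signals of 50.9 and 47.4 against 58.1 and 59.9, the only member probe set with both RA arrays above both vehicle arrays, and did not pass (limma, unadjusted p = 0.397, adjusted p = 1).

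The genes whose 4 values lay nearest those of Stat5a, each gene centred on its own mean, were Apba1, Cldn4 and Rcbtb1, at Euclidean distances of 0.0237, 0.0319 and 0.0333 on the log2 scale over 4 arrays. Distances under 0.3 were common and included 1839 of the 13010 other genes, so closeness to this shallow pattern singles out little.

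The feedback inhibitors Socs2 and Socs3 had changes of opposite sign on their brightest probe sets, and neither passed. Socs2, best known for limiting growth hormone signalling through STAT5, gave signals of 648 and 424 with vehicle against 615 and 341 with RA. Both replicate 2 arrays were below both replicate 1 arrays, and the gaps within groups (0.61 and 0.84, log2) exceeded the change with RA (−0.19 ± 0.32, interval −0.93 to 0.55). That probe set is of a type that may bind transcripts of other genes as well. A gene-specific Socs2 probe set had 211 and 179 against 188 and 115, with RA replicate 2 the lowest (log2 change −0.39 ± 0.27, interval −1.02 to 0.25). Of 5 Socs2 probe sets above the filter, 4 were negative and 1 was positive. Without RA replicate 1 the change on the brightest was −0.61 (limma, unadjusted p = 0.021, adjusted p = 0.488), and without RA replicate 2 it was 0.23, so its sign rested on which RA array was used. With 1 RA array left, such a p assumes that it varies like the vehicle pair. Socs3, the inhibitor of gp130 receptors and a direct STAT3 target, whose STAT pattern is printed above, had 177 and 127 with vehicle and 213 and 137 with RA. Replicate 1 was above replicate 2 in both groups (log2 change 0.18 ± 0.28, interval −0.48 to 0.84). The other Socs3 probe sets gave 0.14 ± 0.26 and 0.14 ± 0.30, so 3 of 3 were positive and in each the groups overlapped. The brightest and the first of these others are also of a type that may bind transcripts of other genes.

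**Figure D2:**
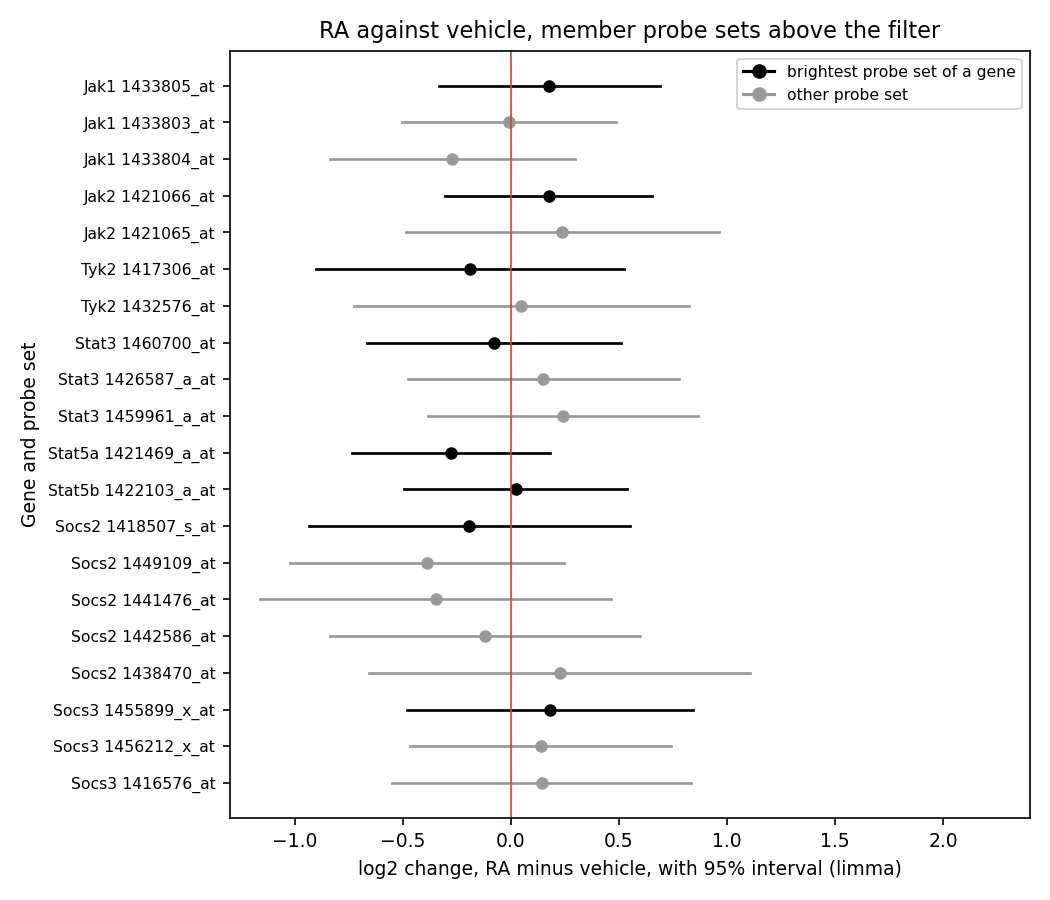
Log2 change (RA minus vehicle, horizontal axis) with 95% intervals from limma for the 20 member probe sets above the filter, with the brightest probe set of each gene in black and the others in grey. Every interval crosses 0, and those of the 8 brightest probe sets stay between −0.93 and 0.84.

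These intervals rest on the spread of the 4 samples alone and say nothing of animals or cultures not sampled. For the 8 genes on their brightest probe sets they ran from −0.93 to 0.84 in log2, so all 8 stayed within 1 log2 unit of 0 in either direction, as did those of 17 of the 20 probe sets, while 3 went beyond it, all of them of Socs2. With this design the smallest two-sided p that an exact permutation test can reach for 1 gene is 0.33.

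The other genes of the pathway, from 8 lists of regulators, receptors, ligands and targets with 127 genes, gave the same count of passes. Of 97 above the filter, 0 passed adjustment in limma, in a fit that left out the replicate number. That count changed when the replicate number was included, as given under the processing alternatives. At an unadjusted p under 0.05 there were 2 higher (Stat4 and Cebpb) and 4 lower (Il13ra1, Timp1, Gbp3 and Irf9), against 2.71% of all genes in either direction. The groups did not overlap in 16 that were higher and 12 that were lower, where the background was 14.1% and 12.6%. Their median log2 change was 0.03.

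Other STAT, SOCS and PIAS genes had a median of 0.04 over 12 genes, 8 positive and 4 negative. Stat4, which carries interleukin 12 signals in lymphocytes, had 28.4 and 18.5 with vehicle and 39.0 and 54.6 with RA, 1.83-fold higher (log2 change 0.87 ± 0.33, limma, unadjusted p = 0.0309, adjusted p = 1). Its RA arrays were the higher ones. The summed lymphocyte markers were also higher with RA (406 and 435 against 358 and 381), but not once Gzmb was left out. The part of lymphocytes in Stat4 was not tested. Stat2, a transcription factor of interferon responses, had 51.3 and 81.8 with vehicle and 39.0 and 47.8 with RA (−0.54 ± 0.32), and on its second probe set 24.1 and 31.0 against 12.4 and 9.82 (−1.01 ± 0.31, limma, unadjusted p = 0.0111, adjusted p = 1). On both probe sets the RA arrays were the lower ones. Socs1 was below the filter. Cish, a further STAT5-induced inhibitor, had 182 and 169 against 221 and 111, with the RA arrays on either side of the vehicle arrays.

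Phosphatases and adaptors had a median of 0.01 over 12 genes. Stam, an adaptor that sorts receptors for degradation, had 231 and 240 with vehicle and 362 and 277 with RA (0.42 ± 0.21), but −0.19 and 0.06 on its other probe sets above the filter. Dusp3, a phosphatase, stood at 0.35 ± 0.21 with the RA arrays both higher, and at 0.28 ± 0.29 on its other probe set above the filter.

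Receptor genes of the gp130 family had a median of 0.09 over 7 genes. The shared subunit Il6st had 579 and 624 with vehicle and 583 and 599 with RA (−0.02 ± 0.19), the RA arrays lying between the others. Lifr, which binds leukemia inhibitory factor, had 483 and 428 against 497 and 294, with RA replicate 2 alone low (−0.25 ± 0.27). Il27ra, the interleukin 27 receptor, stood at −0.67 ± 0.35 with signals near the filter.

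Among growth hormone type and gamma chain receptors (9 genes, median −0.07), Il13ra1, a receptor subunit for interleukins 4 and 13, had 373 and 317 with vehicle and 258 and 185 with RA. Both RA arrays were lower (−0.64 ± 0.23, limma, unadjusted p = 0.0245, adjusted p = 1). Of its further probe sets above the filter, 3 in number, the changes were −1.29, −0.30 and −0.11. Il7r, the interleukin 7 receptor of lymphoid cells, stood at −0.74 ± 0.43, with vehicle replicate 2 at 304 and the other arrays between 85.0 and 158. Ghr, the growth hormone receptor, stood at 0.00 ± 0.20, with signals between 489 and 591.

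The interferon and interleukin 10 receptors had a median of 0.04 over 7 genes. Ifngr1, a chain of the interferon gamma receptor, stood at 0.37 ± 0.25 and Ifnar2, of the type I interferon receptor, at 0.30 ± 0.24. In both the RA arrays were above the vehicle arrays and neither passed. On the other Ifnar2 probe sets above the filter the change was 0.36 ± 0.35 and 0.07 ± 0.30, and the groups overlapped. Of 18 cytokine ligands with a probe set, 9 were above the filter, with a median of 0.06. Lif, which encodes leukemia inhibitory factor, had 94.7 and 74.6 with vehicle and 117 and 98.1 with RA, separated by a narrow gap (0.33 ± 0.26). Csf3, a granulocyte growth factor, stood at 0.39 ± 0.31. The interferon genes Ifng and Ifnb1 were below the filter on average.

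Known STAT3 and STAT5 target genes had a median of 0.08 over 24 genes, 17 of them positive and 7 negative. The groups did not overlap in 6 that were higher and 2 that were lower, where the background was 14.1% and 12.6%. Cebpb, a transcription factor of acute responses, had 155 and 160 with vehicle and 293 and 257 with RA, 1.71-fold higher (0.78 ± 0.20, limma, unadjusted p = 0.00511, adjusted p = 1). Timp1, a metalloproteinase inhibitor, had 337 and 311 against 157 and 202, 1.8-fold lower (−0.84 ± 0.21, limma, unadjusted p = 0.00441, adjusted p = 1). The gaps between the groups were wider than those within them in both genes. Beyond the naming rule, and chosen after their values were seen, the kinase genes Pim1 and Pim3, which promote survival, stood at 0.40 ± 0.22 and 0.47 ± 0.24, with both RA arrays above both vehicle arrays. Igf1, chosen in the same way, went in the opposite direction, with 130 and 270 with vehicle against 95.1 and 121 with RA (−0.78 ± 0.35). Both of its RA arrays were below both vehicle arrays. Bcl6, a repressor induced by STAT3, stood at −0.08 ± 0.23 and Fos at 0.03 ± 0.23.

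**Figure D3:**
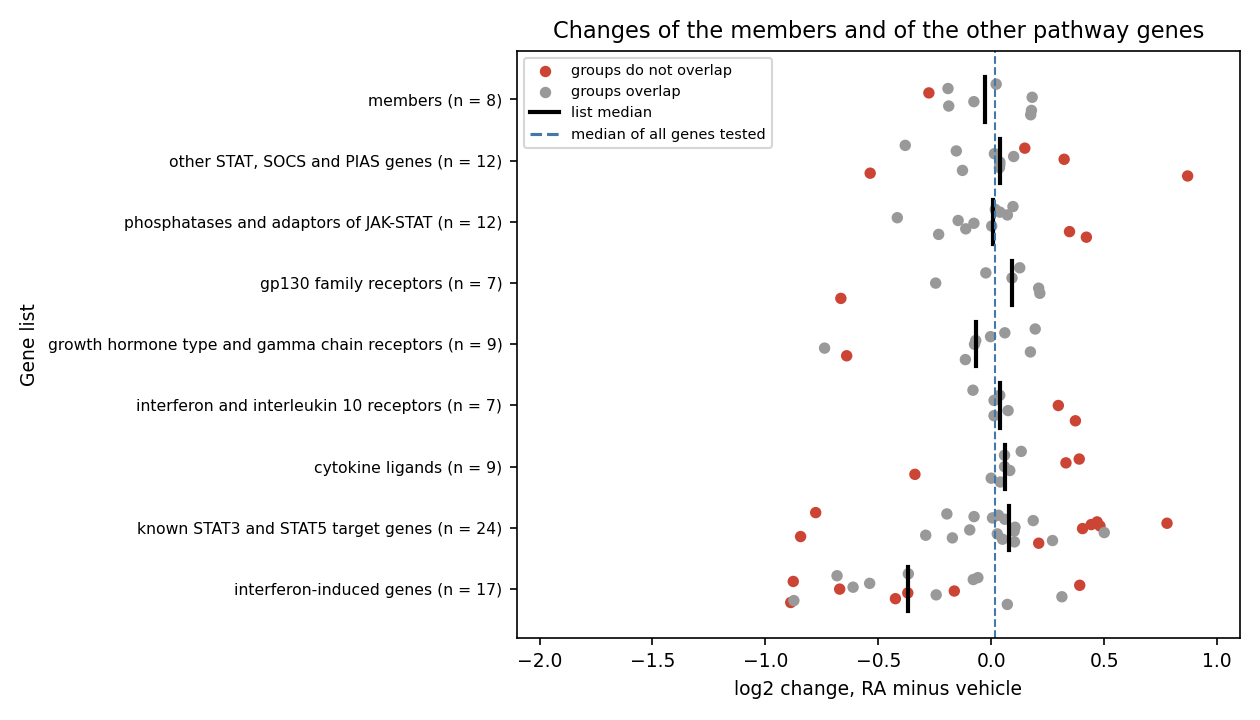
Log2 change (RA minus vehicle) of each gene above the filter in the members and the 8 pathway lists; red points are genes whose groups do not overlap, black bars are list medians and the dashed line is the median of all genes tested, 0.01. The interferon-induced genes have the lowest median, −0.37.

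Interferon-induced genes, which read out interferon signalling, had the lowest median of the 8 lists, −0.37 over 17 genes, 14 of them negative. In limma 0 of them passed adjustment and 2 were lower at an unadjusted p under 0.05, against 2.71% of all genes in either direction. The groups did not overlap in 6 that were lower and 1 that was higher, where the background was 12.6% and 14.1%. Gbp3, a guanylate-binding protein, had 149 and 191 with vehicle and 87.6 and 90.4 with RA, 1.85-fold lower (−0.89 ± 0.24, limma, unadjusted p = 0.00604, adjusted p = 1). Irf9, the DNA-binding partner of STAT2, had 126 and 167 against 102 and 77.3 (−0.67 ± 0.26, limma, unadjusted p = 0.0356, adjusted p = 1). In both genes the RA arrays were the lower ones. The Gbp3 promoter window held a pair of GAAA runs spaced by 2 bases, the core of the interferon-stimulated element, a pattern found in 3.44% of all windows. Of the 17 genes of the list with a promoter window, 9 held it, against 3.99% of all genes. Among the 6 genes that were lower without overlap, matches were found in Gbp3 and Oas1a only. Whether the pattern went with the change was not tested. The Gbp3 window is shown with its first match, which lies on the opposite strand and overlaps a second one, in capitals.
Gbp3, chr3:142559969-142560038, plus strand: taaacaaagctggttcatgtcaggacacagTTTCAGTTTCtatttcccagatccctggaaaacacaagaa
In other genes of the list 1 array stood apart. Ifit1, an RNA-binding antiviral protein, had 30.2 and 110 with vehicle and 29.1 and 30.4 with RA, so vehicle replicate 2 stood alone. Usp18, a brake on interferon signalling, had 56.0 and 138 against 40.3 and 52.1. There vehicle replicate 2 was also far above the rest, although both vehicle arrays lay above both RA arrays. The signals of the 18 measured genes of the list, Mx2 below the filter included, summed to 2335 and 3303 on the vehicle arrays against 2435 and 2203 with RA. These groups overlapped through Cxcl10, 1 of the 3 positive genes, with 241 and 393 against 496 and 297. Without Cxcl10, which was left out after its values were seen, both RA sums were below both vehicle sums. Without vehicle replicate 2 the median was −0.09, with 10 genes negative and 7 positive. The macrophage and myeloid markers summed to 1546 and 3085 with vehicle against 1136 and 2512 with RA, replicate 2 being higher in both groups. Leydig cell markers summed to 1374 and 2495 against 1509 and 1978, again with replicate 2 higher in both groups. The part of either in the interferon-induced genes was not tested.

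**Figure D4:**
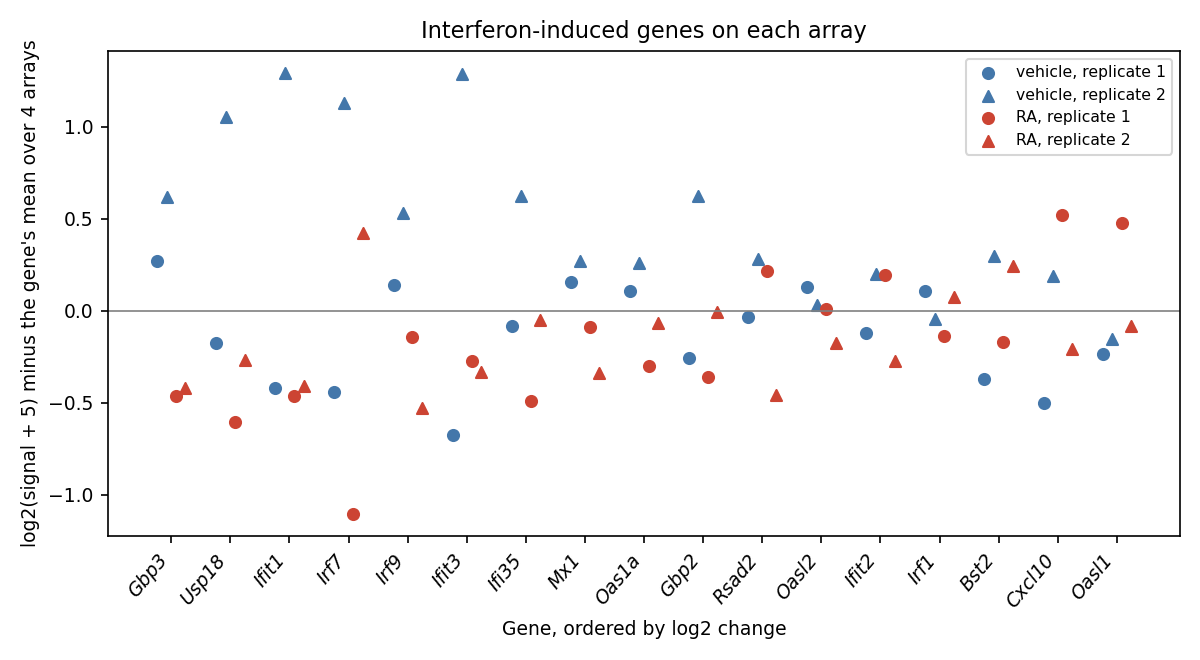
Log2(signal + 5) of 17 interferon-induced genes on each array, minus the gene's mean over the 4 arrays, ordered by log2 change from the most negative on the left. Vehicle replicate 2 (blue triangles) stands above the other arrays in Usp18, Ifit1, Irf7 and Ifit3, and in Irf7 RA replicate 2 is the next highest. In Gbp3, Irf9 and Usp18 both vehicle arrays lie above both RA arrays.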

How the data were processed

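The deposited table of the authors holds linear intensities, 1 for each probe set on each array. Per the labels' protocols, 75 ng of total RNA went through NuGEN Ovation amplification (version 2) and was hybridised to Affymetrix Mouse Genome 430 2.0 arrays and quantified with GCOS 1.2; probe summary and scaling are not given in the sources used here. Trimmed means (2% at each end) were 125 on all arrays, so no further scaling was applied. Amplification from the 3' end can weaken distant probe sets.

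Values were taken as log2(intensity + 5), which understates fold changes of dim genes. Probe sets with mean log2 value at or above the 40th percentile (27022 of 45037, after 64 controls were left out) were compared by linear models (limma 3.58.1, R 4.3.3; lmFit and eBayes with its variance prior following intensity) in two-sided tests, adjusted by Benjamini-Hochberg over all of them. A gene was read from its brightest probe set. Symbols came from the platform annotation, updated through Entrez IDs (34741 probe sets); 34945 probe sets named 1 gene, 932 several and 9160 none.

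Members and lists were chosen with earlier results of these data known. Named were all members, and per pathway list the genes with unadjusted p under 0.01 and separated groups (at most 4), otherwise the 2 with the smallest p; further genes were chosen after their values were seen. Medians of log2 change not given in the text were those of Sertoli (0.18), Leydig (−0.20), stromal (0.09) and endothelial markers (0.28). Alternatives covered normalization, pseudocount, filter, variance model, replicate number, single arrays and the mean of probe sets.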

Additional observations from a re-analysis of the deposited data

How the results depend on the processing

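No member probe set passed adjustment under any alternative in which probe sets were tested. The median of the members stayed within the spread between replicates (0.286, log2) of its main value. Over all probe sets, leaving out 1 array in turn gave between 0 and 173 calls, and member probe sets with an unadjusted p under 0.05 numbered between 0 and 2, the 2 both of Socs2 and lower without RA replicate 1. The median of the interferon-induced genes was lowest without vehicle replicate 1 (−0.482) and nearest to 0 without vehicle replicate 2 (−0.0869). The titles give both groups the numbers 1 and 2 but do not say that these pair the samples. Deviations of same-numbered arrays from their group means correlated at 0.526. With the replicate number as a block, 543 of 27022 probe sets were called. Among the pathway genes, each on its brightest probe set, 8 of 97 were called, and among the member probe sets 0 of 20.

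Of 104 values for the 8 member genes under the alternatives, 91 kept the sign of the main fit and 13 did not, all without passing. With equal array medians Stat3 was 0.0114. When all probe sets of a gene were averaged, Jak1 was −0.0338 and Stat3 0.105. Leaving out 1 array in turn moved the log2 change of Jak1 between −0.0548, without vehicle replicate 2, and 0.410, when vehicle replicate 1 was left out, and that of Tyk2 between −0.553 (without RA replicate 2) and 0.176 (without RA replicate 1). It moved Stat3 between −0.316 (without RA replicate 1) and 0.162 (without RA replicate 2), with 0.154 without vehicle replicate 1. Stat5b ran from −0.153 (without vehicle replicate 1) to 0.196 (without vehicle replicate 2), with −0.0317 without RA replicate 1. Socs2 ran from −0.613 (without RA replicate 1) to 0.229 (without RA replicate 2), with 0.112 without vehicle replicate 1. Socs3 ran from −0.129 (without RA replicate 1) to 0.4905 (without RA replicate 2), with −0.0507 without vehicle replicate 2. Jak2 and Stat5a kept their sign under all 13 alternatives. The cause of these differences was not tested. The number of arrays limits the precision, and values near the bottom of the scale, such as those of Jak3, carry little information.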
